A study of Homo sapiens with 4 samples.

Results

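The glycolytic enzyme mRNAs examined here are those of GPI, ALDOA, TPI1, GAPDH, PGK1, PGAM1, ENO1, PKM, LDHA and LDHB, taken by gene symbol from a table of 19948 protein-coding genes. All 10 symbols were in the table, and 8 of them had at least 30 counts over the libraries. The data come from HEK293T cells, an established human embryonic kidney line, that received cycloheximide at 100 µg/mL for 10 min, which holds elongating ribosomes on their mRNAs. Lysate was spun through sucrose from 10% to 50% and divided into a free, a monosome, a light polysome and a heavy polysome pool. Capped, polyadenylated RNA of each pool was read directly on nanopores, without amplification, and each pool gave 1 library. The cells of all pools carried cycloheximide, and the labels name no other drug or genetic change.

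Glycolysis splits glucose into pyruvate in the cytosol and yields ATP and NADH. GPI, aldolase (ALDOA) and TPI1 prepare the triose phosphates. GAPDH, PGK1, PGAM1, ENO1 and PKM carry them to pyruvate, and lactate dehydrogenase, built from LDHA and LDHB subunits, turns pyruvate into lactate and restores NAD+. These enzymes are among the most abundant proteins of growing cells, and several of their mRNAs serve as reference transcripts in other assays. In a sucrose gradient, an mRNA that carries more ribosomes travels further, so the heavy polysome pool holds the mRNAs that carry the most.

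The library totals were 355509 counts (free), 1329334 (monosome), 1499401 (light polysome) and 1564531 (heavy polysome). Values below are counts, counts scaled to a common library total (CPM), or log2 ratios of shares set against the median of the 7527 genes with at least 30 counts, called tested genes. The share of the median gene itself was 2.41-fold higher in the monosome than in the free library, 1.98-fold higher in the light polysome than in the monosome library, 1.51-fold higher in the heavy than in the light polysome library, and 8.26-fold higher in the heavy polysome than in the free library. Intervals cover 95% counting error (Clopper-Pearson) and nothing else, because no pool has a replicate, which leaves no spread between samples to compare with. A gene is called higher or lower when it lay at least 2-fold from the median gene and its interval excluded the median gene. All 7 markers of the line had counts, with summed levels of 59.1, 125, 144 and 732 CPM from free to heavy polysome. VIM gave 850 of their 1548 counts, and PAX2 had only 6 in all. Of 9 markers of blood, liver, muscle, connective tissue and pancreas, 2 had a count, HBB with 4 in the free library and COL1A1 with 2 in the heavy polysome library.

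Aldolase A and lactate dehydrogenase B were nearly missing from the counts. ALDOA, which splits fructose 1,6-bisphosphate, had 1 count in all, in the light polysome library. LDHB had 0, 0, 2 and 6 counts from free to heavy polysome. A library without a count allows up to 8.44 CPM (free) or 2.26 CPM (monosome), taking 3 counts as the limit. In GENCODE release 29, 82.6% of the main transcript of ALDOA (gene at chromosome 16, 30064164 to 30070457, plus strand) is covered by exons of another protein-coding gene on the same strand, AC093512.2. For LDHB (gene at chromosome 12, 21635342 to 21757857, minus strand) the gene AC010197.2 covers 76.5%. Both covering genes are in the table with no count in any library. How reads that overlap several genes were counted was not given in the sources used here, and the part of these overlaps in the low counts was not tested. Neither mRNA is described further as a level.

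PGAM1, the phosphoglycerate mutase, has a near-identical copy in the table. This copy, PGAM4 (chromosome X, 77968874 to 77969638), has no intron and lies inside PGK1 on the other strand, outside the exons of the main PGK1 transcript. Its coding sequence has 762 nucleotides, like that of PGAM1, and differs at 13 of them (98.3% identity). The table gave PGAM1 5, 72, 304 and 2834 counts from free to heavy polysome and PGAM4 3, 52, 229 and 2287. PGAM1 therefore took 62.5% of the pair among free reads (interval 24.5 to 91.5), 58.1% among monosome reads (48.9 to 66.9), 57.0% among light polysome reads (52.7 to 61.3) and 55.3% among heavy polysome reads (54.0 to 56.7). These intervals overlap, so a change of the split over the gradient was not detectable at this depth, and how reads were divided between the copies is uncertain. GENCODE also names 62 pseudogenes after GAPDH, 13 after PGAM1 and at most 6 after any other of the 10 genes. None of these pseudogenes is in the table, and whether they drew reads from their parent genes was not tested.

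The series concerns TOP mRNAs, which start with a C followed by a run of pyrimidines, so the annotated start sites of the glycolytic genes were read from the RefSeq start-site table (GRCh38.p14). The lines below show 10 bases before and 15 bases from the start on, written 5′ to 3′, for GAPDH, TPI1 and LDHA, on which the results below turn, for LDHB, which alone of the 10 starts with C, and for the ribosomal protein gene RPL41 as an example of a TOP start. Capitals mark the first base at the RefSeq-annotated start, or the unbroken pyrimidine run that begins there. For ENO1, LDHB, ALDOA and TPI1 this start is also that of the main GENCODE transcript. For the other 6 genes it lies elsewhere, 1337 bases away for GAPDH, 1658 for PGAM1 and 74 to 204 for PGK1, PKM, LDHA and GPI, and for RPL41 47 bases away.
GAPDH (chr12:6535254-6535278, plus strand): gtgcatccctGtccggatgctgcgc
TPI1 (chr12:6867521-6867545, plus strand): gcgactgcgcGcagacactgacctt
LDHA (chr11:18394553-18394577, plus strand): ccagctcagaGtgctgcagccgctg
LDHB (chr12:21657828-21657852, minus strand): ctcctccctcCTTgcagagccggcg
RPL41 (chr12:56116623-56116647, plus strand): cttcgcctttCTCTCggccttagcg
A C followed by at least 4 pyrimidines at the RefSeq start was found in 0 of the 10 glycolytic genes, of which GAPDH and PGAM1 were read far from their GENCODE start, in 47 of 84 ribosomal protein entries (56.0%) and in 1429 of all 35116 entries (4.07%). The run of LDHB had 3 bases. Several genes have more than 1 annotated start, and the start used in these cells was not read from the counts.

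All 8 measured mRNAs had their highest level in the heavy polysome library. The share of the median gene also rose at each step, by 2.41-, 1.98- and 1.51-fold, so this is not a trait of these mRNAs alone. How many of all tested genes were highest there was not counted. GAPDH, the dehydrogenase that makes 1,3-bisphosphoglycerate, had 2301 CPM (free), 905 CPM (monosome), 867 CPM (light polysome) and 5948 CPM (heavy polysome). It was the only one of the 8 whose level in the free library lay above those of both the monosome and the light polysome library, with intervals that did not overlap. TPI1, the triose phosphate isomerase, had 174, 269, 1788 and 3273 CPM in the same order. Its climb lay between the monosome and the light polysome library.

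ENO1, the enolase, had 152 CPM (free), 188 CPM (monosome), 395 CPM (light polysome) and 3300 CPM (heavy polysome). LDHA had 87.2, 98.5, 207 and 2647 CPM. PKM, the pyruvate kinase that makes pyruvate and ATP, had 47.8, 66.2, 156 and 846 CPM. In these 3 mRNAs the free and monosome levels lay close together with overlapping intervals, and the large step came at the last pool. PGAM1 had 14.1, 54.2, 203 and 1811 CPM, a climb at every step. PGK1, the kinase that forms the first ATP of the pathway, had 11.3, 12.8, 24.0 and 398 CPM, and GPI, which isomerises glucose 6-phosphate, had 11.3, 18.1, 15.3 and 73.5 CPM. Exons of a same-strand protein-coding gene, AC092073.1, cover 9.46% of the main GENCODE transcript of GPI. That gene had no count in any library, and the part of this overlap in the GPI counts was not tested. The free library held 4 counts of PGK1, 4 of GPI and 5 of PGAM1, so their levels there are known only within wide intervals.

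**Figure D1:**
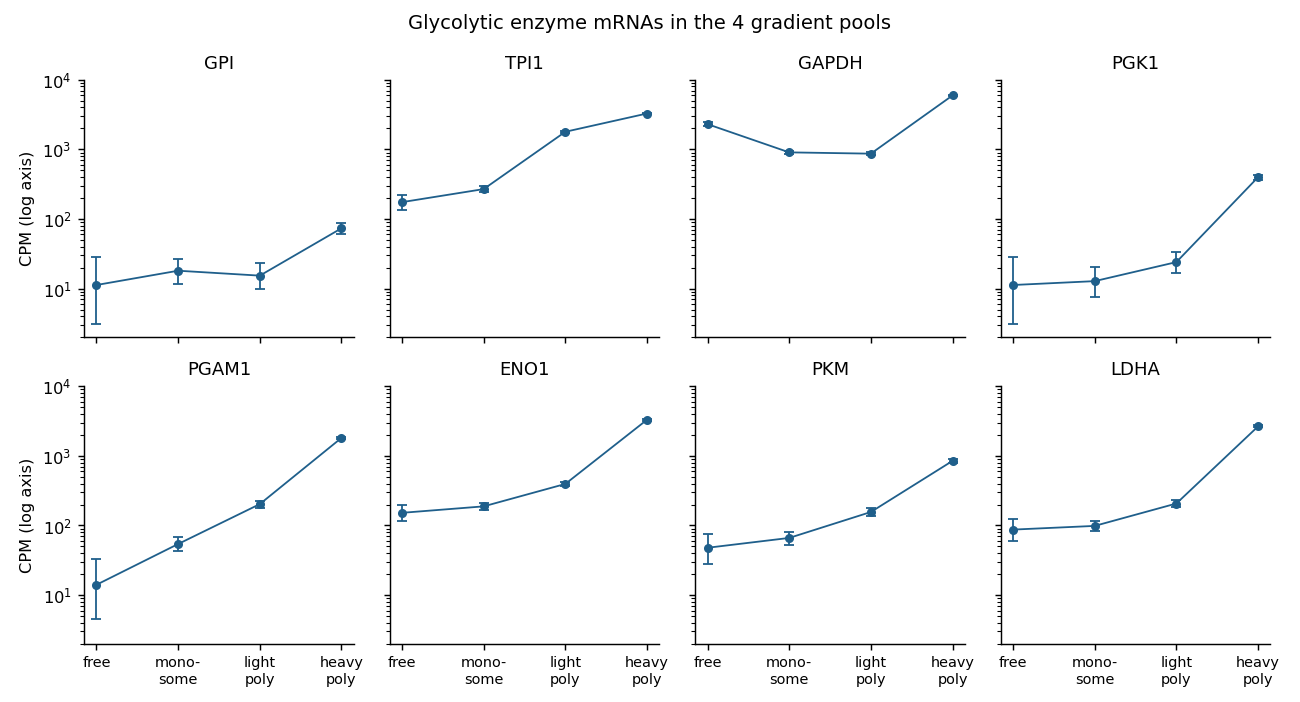
Level of each measured glycolytic mRNA in CPM (log axis) in the free, monosome, light polysome and heavy polysome libraries, with 95% counting intervals and 1 library per pool. Every mRNA is highest in the heavy polysome library. The median tested gene, not drawn, also has a share there that is 1.51-fold that in the light polysome library. GAPDH starts high in the free library at 2301 CPM, and TPI1 has already reached 1788 CPM in the light polysome library.

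Heavy polysomes were compared with light polysomes to find where each mRNA lay once it carried several ribosomes. PGK1 stood furthest toward the heavy end with 623 heavy and 36 light polysome counts, a relative log2 ratio of 3.44 (2.98 to 3.99), at percentile 99.2 of tested genes. LDHA followed with 4142 and 310 counts and 3.09 (2.92 to 3.26). PGAM1 lay at 2.57 (2.40 to 2.74), and at nearly the same place its copy PGAM4 lay at 2.67 (2.47 to 2.87). ENO1 had 5163 and 592 counts and lay at 2.47 (2.35 to 2.60).

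GAPDH lay at 2.19 (2.10 to 2.27), PKM at 1.85 (1.65 to 2.05) and GPI at 1.65 (1.01 to 2.38). TPI1 was the lowest at 0.28 (0.21 to 0.35), with 5120 heavy and 2681 light polysome counts, and was not called. Of the 8 measured mRNAs 7 were called higher and 0 lower, beside 26% of all tested genes called higher and 28.3% called lower. Their median was 2.33, on a scale on which the median of all tested genes is 0. Each of the 8 would have passed the minimum of 30 counts without its most counted library, the fewest being 51 counts for GPI, so none entered only through the heavy polysomes. All 8 also stayed above 0 under every scaling and filter tried. TPI1 lay between 0.26 and 0.51 in those, except at 0.64 without ribosomal protein genes in the totals and at 0.87 on library totals alone, where 0 stands for an equal share and not for the median gene. The call of GPI was lost at 0.63 after thinning to the shallowest library, which left 6 called higher.

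Heavy polysomes were compared with the free pool to set the loaded mRNAs against those without ribosomes. PGAM1 lay furthest toward the heavy polysomes, at 3.83 (2.74 to 5.59) relative to the median gene, at percentile 99.6 of tested genes. PGK1 lay at 1.93 (0.74 to 3.98), LDHA at 1.86 (1.37 to 2.44), ENO1 at 1.38 (1.01 to 1.81), TPI1 at 1.17 (0.82 to 1.57) and PKM at 1.06 (0.42 to 1.88). These 6 were called higher, beside 6.36% of all tested genes, though PKM lost its call at 0.94 with a minimum of 100 counts. The 6.36% is limited by depth, since 2348 of the 7527 tested genes had no free count and so very wide intervals. By ratio alone PGK1 stood at percentile 91.7 of tested genes and LDHA at 91.1. ENO1 stood at 84.3, TPI1 at 80.6 and PKM at 78.0. TPI1, near the median gene between heavy and light polysomes, had an interval here that overlapped those of ENO1 and PKM.

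GAPDH stood apart, with 9306 counts in the heavy polysome and 818 in the free library. Its share was 2.58-fold higher in the heavy polysome library, less than the 8.26-fold of the median gene, and it lay at -1.68 (-1.78 to -1.57), called lower beside 15.3% of tested genes. That direction turned to 1.37 on library totals alone and to 0.20 without the ribosomal protein genes in the totals, and the call was lost at -0.54 when genes without a count were set to 3. GAPDH remained the lowest of the 8 under each of these, since a scaling moves all genes alike. An antisense RNA, AC006064.4, covers 22.5% of its main transcript (gene at chromosome 12, 6533927 to 6538374), and the use of strand in counting was not given in the sources used here. GPI lay at -0.50 with an interval from -1.73 to 1.56, too wide at 4 free counts to place it on either side.

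**Figure D2:**
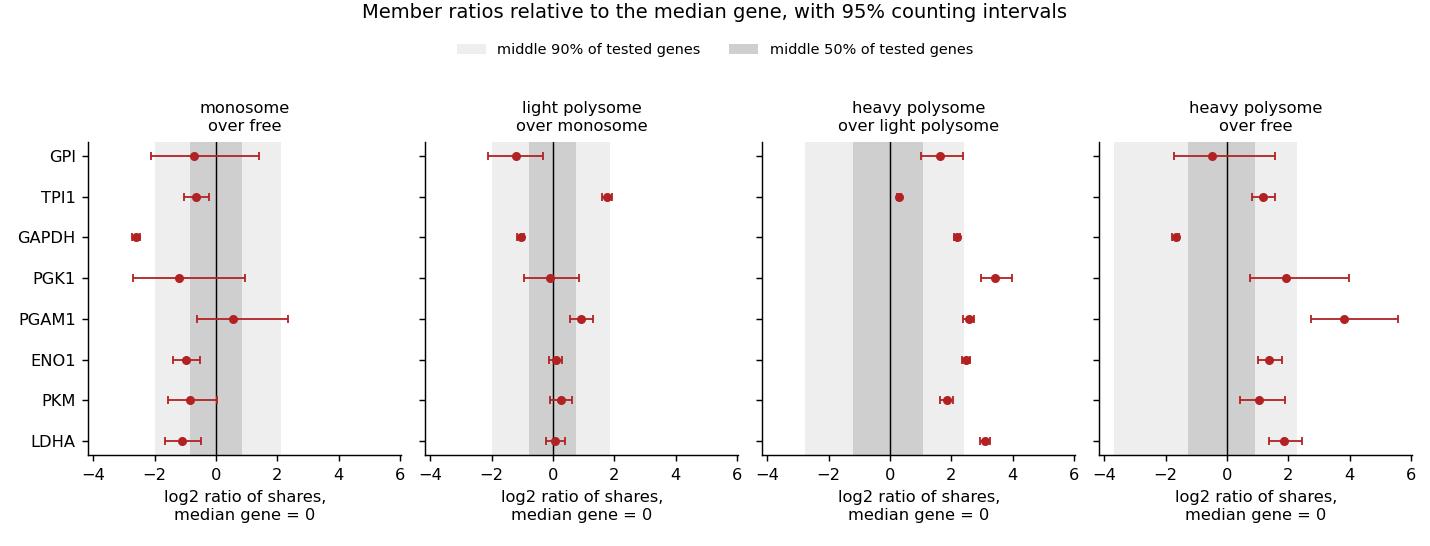
Log2 ratio of shares of each measured mRNA relative to the median tested gene, with 95% counting intervals, in 4 comparisons. Grey bands hold the middle 50% and 90% of tested genes. Between heavy and light polysomes 7 mRNAs lie between 1.65 and 3.44 and TPI1 at 0.28, while GAPDH lies lowest, at -1.68, between heavy polysome and free, a direction that turns on library totals alone and without ribosomal protein genes in the totals.

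The monosome pool was compared with the free pool to ask what distinguishes a first ribosome from none. GAPDH was lower in the monosome library, with 1203 counts against 818 in the much shallower free library, and lay at -2.61 (-2.74 to -2.48). It stayed below 0 under every alternative, between -2.74 and -1.35 (library totals alone). LDHA lay at -1.11 (-1.66 to -0.48) and was also called lower, a call kept under 4 of 11 alternatives and turned to 0.16 on library totals alone. The calls of 2 lower and 0 higher stand beside 4.57% and 5.13% of tested genes. PGAM1 at 0.55 (-0.61 to 2.34) was the 1 measured mRNA above the median gene, and the other 5 lay between -1.21 and -0.65 without a call.

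Light polysomes were compared with monosomes to ask which mRNAs moved on to several ribosomes. Only TPI1 was called higher, at 1.75 (1.59 to 1.91), with 2681 counts in the light polysome and 357 in the monosome library, at percentile 94.0 of tested genes. PGAM1 lay at 0.91 (0.55 to 1.31), short of 2-fold. GAPDH at -1.05 (-1.16 to -0.93) and GPI at -1.22 (-2.11 to -0.33) were called lower. The share of called genes was 14.9% higher and 16.3% lower among all tested genes. ENO1, LDHA, PKM and PGK1 lay between -0.10 and 0.25, with intervals that included the median gene.

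Since both ends of the gradient hold different amounts of other mRNAs, the make-up of the glycolytic reads within each library was also taken, which depends on no scaling. GAPDH gave 82.2% of the reads of the 10 genes among free reads (79.7 to 84.5), 56.2% among monosome reads (54.0 to 58.3), 23.7% among light polysome reads (22.6 to 24.9) and 32.5% among heavy polysome reads (32.0 to 33.0). TPI1 gave 6.23%, 16.7%, 48.9% and 17.9%, and so led in the light polysomes. All are parts of the same sum, so the large TPI1 part there lowers the others. Set against ENO1 alone, GAPDH had 15.1, 4.81, 2.20 and 1.80 reads per ENO1 read from free to heavy polysome. LDHA gave 3.12%, 6.12%, 5.65% and 14.5%, and ENO1 5.43%, 11.7%, 10.8% and 18.0%. PGAM1 gave 0.503%, 3.36%, 5.54% and 9.90%. PKM held a steady part of 4.11%, 4.27% and 4.62% from monosome to heavy polysome, with overlapping intervals, after 1.71% in the free library.

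**Figure D3:**
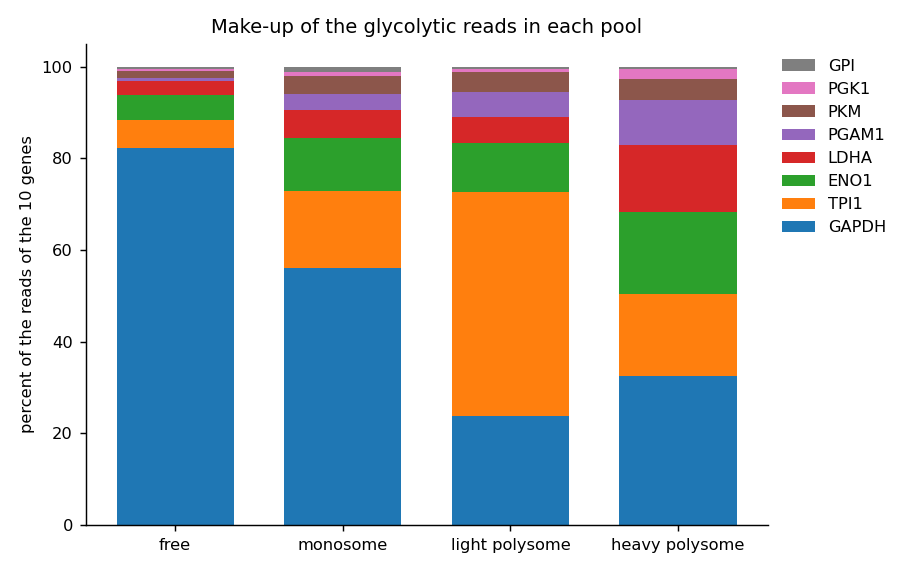
Percent of the reads of the 10 glycolytic genes that each measured gene gave in each library, stacked from 0, with 1 library per pool. ALDOA and LDHB have at most 6 counts in a library and are not drawn. GAPDH takes 82.2% of the free library's glycolytic reads, and TPI1 takes 48.9% in the light polysomes.

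Together the 10 genes took 0.280% of all free reads (0.263 to 0.298), 0.161% of monosome reads (0.154 to 0.168), 0.366% of light polysome reads (0.356 to 0.375) and 1.83% of heavy polysome reads (1.81 to 1.85). Without GAPDH the shares were 0.0498%, 0.0706%, 0.279% and 1.24%. The heavy polysome share over the free share was thus 6.54-fold with GAPDH and 24.8-fold without it. At the main settings these lie on either side of the 8.26-fold of the median gene, a log2 ratio of 3.05. For all 10 genes, at log2 2.71, the side depends on the settings. The median gene lay at 3.16 with a minimum of 100 counts, but at 2.51 with a pseudocount of 1. With a minimum of 10 counts it lay at 2.62, with no minimum at 1.92 and with genes without a count set to 3 at 1.91. Without TPI1 the heavy polysome share over the light polysome share was 8.04-fold, against 5.00-fold for all 10.

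Weighting the CPM of a gene by 0, 1, 2 and 3 from free to heavy polysome gives a score, called its mean gradient position. Because every library was scaled to the same total, the score leaves out the amount of RNA in each pool. It is therefore not the mean place of the molecules of an mRNA in the gradient. PGAM1 stood at 2.83, PGK1 at 2.81, LDHA at 2.78, ENO1 at 2.70, PKM at 2.61, TPI1 at 2.48, GPI at 2.28 and GAPDH at 2.04. PGAM1 lay above 99.5% of tested genes, GPI above 53.6% and GAPDH above 31.6% of them. The median of all tested genes was 2.25, and only GAPDH of the 8 lay below it. The order of PGAM1, PGK1 and LDHA rests on small differences and on few free counts.

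Longer coding sequences have room for more ribosomes. Across 7465 tested genes with a coding length, the heavy to light polysome ratio had a Spearman rho of 0.33 with coding length, and across the 8 measured mRNAs it was -0.12. Both are descriptions across genes of the same libraries, and the part of coding length in the ratios of the 8 was not tested. TPI1 and PGAM1 have almost the same coding length, 747 and 762 nucleotides, and lay at 0.28 and 2.57 between heavy and light polysomes. In reads, TPI1 gave 64.4% of the pair in the heavy polysome library (63.3 to 65.4), against 89.8% in the light polysome library (88.7 to 90.9). PGAM1 there counts without its copy, and adding the PGAM4 reads left the call of PGAM1 as it was. The longest coding sequence, GPI with 1674 nucleotides, lay at 1.65, below LDHA with 996.

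The start-codon contexts of this pair were alike in the positions that matter most to initiation. From the main GENCODE transcripts, the 9 bases before the start codon and 4 from it on are printed, with the base at -3, the start codon and the base at +4 in capitals.
TPI1 (chromosome 12): tccagcGccATGG
PGAM1 (chromosome 10): cccgccGccATGG
Both have a purine at -3 and a G at +4. All 10 glycolytic genes had the purine, beside 85.1% of 18288 genes, and 6 had both, beside 42.6%. The 4 without the G were PGK1, ENO1, PKM and ALDOA. Of the mRNAs toward the heavy end, PGK1 and ENO1 thus lacked it, while LDHA and PGAM1 had it. The part of the start-codon context in the ratios was not tested.

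**Figure D4:**
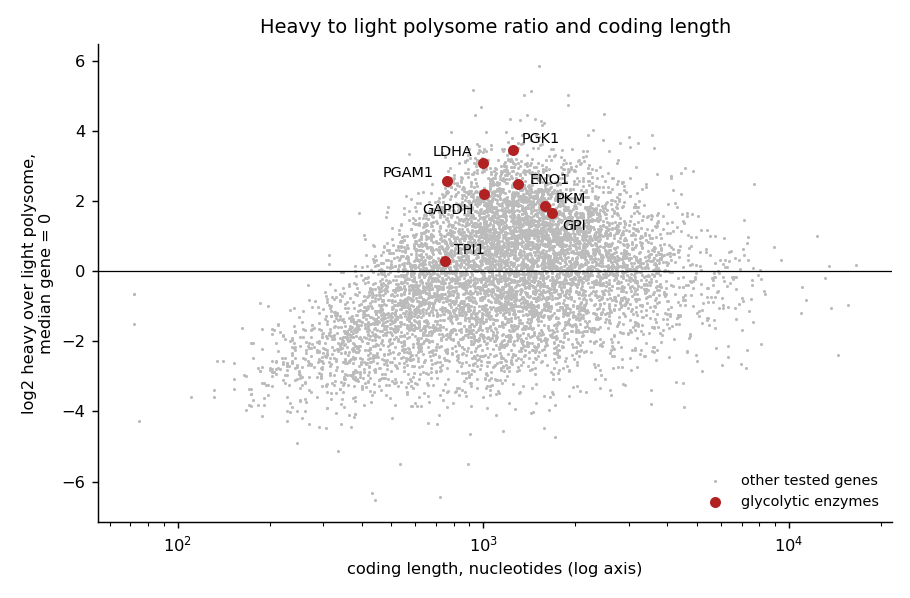
Log2 ratio of heavy over light polysome shares relative to the median gene (vertical axis) against coding length in nucleotides (log axis) for tested genes in grey and the 8 measured glycolytic mRNAs in red. TPI1 and PGAM1 have the shortest coding lengths of the 8, 747 and 762 nucleotides, and lie at 0.28 and 2.57.

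The rest of the pathway was thinly counted. Of 21 further glycolytic genes (other isoforms, hexokinases, phosphofructokinases, BPGM and ADPGK) 8 were tested, with a median heavy to light polysome ratio of 0.65 relative to the median gene, 1 called higher and 1 lower, beside 26% and 28.3% of all tested genes. The one called higher was PGAM4. Between heavy polysome and free, 1 of the 8 was called higher and 0 lower, beside 6.36% and 15.3%. This was again PGAM4, the copy of PGAM1, at 4.17 (2.84 to 6.67) with 3 free counts. BPGM, which makes 2,3-bisphosphoglycerate, was called lower at -1.82 (-2.33 to -1.35), with 53 heavy and 120 light polysome counts. The hexokinases that phosphorylate glucose lay at 0.13 (HK1) and 0.30 (HK2). The phosphofructokinase subunits lay at 0.90 (PFKL), 0.66 (PFKP) and 0.64 (PFKM). None of these 5 was called, at 16 to 92 counts in the heavy polysome library. HK1, HK2, PFKM and PFKP would not have reached the minimum of 30 counts without that library. The other aldolase with reads, ALDOC, had 28 counts in all and was not tested.

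For transport and side branches the ratios given are again those of heavy to light polysomes, where 26% of all tested genes were called higher. All 3 tested transport genes were called higher there: BSG, the chaperone of the lactate carriers, at 2.59 (2.36 to 2.83), the lactate carrier SLC16A1 at 2.11 and the glucose carrier SLC2A1 at 1.43 (0.71 to 2.29). In the pentose phosphate branch 5 of 7 were called higher, led by transaldolase TALDO1 at 2.25 (1.92 to 2.60), while PGLS at -0.32 and RPIA at -0.24 were not called and lay at 0.27 and 0.35 on library totals alone. Among 10 tested genes of pyruvate dehydrogenase and the mitochondrial pyruvate carrier 8 were called higher and 2 lower, beside 26% and 28.3% of all tested genes. The catalytic subunit gene PDHA1 lay at 3.06 (2.59 to 3.61), and DLD, the dihydrolipoamide dehydrogenase, at 3.83 (2.79 to 5.41) with 6 light polysome counts. Of the 8 called higher, DLD, PDHX, PDK1, PDK2 and PDK3 would not have reached the minimum of 30 counts without the heavy polysome library. These genes were thus tested only through the pool in which they were high. The 2 lower ones were the subunits of the mitochondrial pyruvate carrier, MPC1 at -1.26 (-1.56 to -0.98) and MPC2 at -3.58 (-3.96 to -3.24). PFKFB3, which makes the activator fructose 2,6-bisphosphate, was the 1 tested gene of its list and lay at 1.55 (0.74 to 2.53). It too would not have reached the minimum of 30 counts without the heavy polysome library. Fewer were called between heavy polysome and free, where 6.36% of all tested genes were called higher and 15.3% lower. Few free counts widen the intervals there, so fewer calls need not mean smaller ratios. The median was 1.20 for the pentose phosphate branch, against 1.17 between heavy and light polysomes. It was 0.53 against 2.11 for transport, and 0.62 against 2.11 for pyruvate dehydrogenase and the carrier. There 1 of the 3 transport genes and 1 of the 7 pentose phosphate genes were called higher and 0 lower. Of the 10 genes of pyruvate dehydrogenase and the carrier 2 were called higher and 2, MPC1 and MPC2, lower. PFKFB3, at 1.87 with 0 free counts, was not called.

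The tricarboxylic acid cycle, the next stage of glucose oxidation, had 17 tested genes with a median heavy to light polysome ratio of 1.53 relative to the median gene, 10 called higher and 0 lower, beside 26% and 28.3% of all tested genes. Of the 10 called higher, IDH1 and SUCLG2 would not have reached the minimum of 30 counts without the heavy polysome library. Between heavy polysome and free 4 of the 17 were called higher and 0 lower, beside 6.36% and 15.3%. The highest heavy to light polysome ratio was that of IDH3A at 2.92, and on that scale 4 of the 17 lay below the median gene. The 8 measured glycolytic mRNAs had a median of 2.33 and none below the median gene. No test of the difference between these lists was made.

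The genes nearest in pattern to the mean of the 8 measured glycolytic mRNAs were taken from 636 other genes with at least 1000 counts, by the distance between the shares of CPM over the 4 pools, where 0 is the same pattern and 1 no overlap. The mean pattern had 6.22% of CPM in the free, 6.06% in the monosome, 12.5% in the light polysome and 75.2% in the heavy polysome library. The 6 nearest genes were SRSF7, a splicing factor, at 0.016, VDAC1, a channel of the outer mitochondrial membrane, at 0.021, and TUBB, a beta-tubulin, at 0.022. SLC25A5, an ADP/ATP carrier, followed at 0.025, then TUFM, a mitochondrial elongation factor, at 0.030 and SCD, a fatty acid desaturase, at 0.034. PKM, at 0.021, was as near as these, while GAPDH at 0.197 and TPI1 at 0.200 were the members furthest from their own mean.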

How the data were processed

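The authors deposited raw, unscaled counts for each gene in 4 libraries of HEK293T polysome gradient pools. The submitters' processing notes name minimap2 2.15, featureCounts, Subread 1.6.2 and hg38. The annotation release was not given in the sources used here.

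Everything else was computed from those counts. Of 19948 genes, 7527 had at least 30 counts over the libraries. Log2 ratios of shares used 0.5 added to each count, and their intervals are exact conditional binomial ones. Because each pool has 1 library and no degrees of freedom remain, edgeR's quasi-likelihood test could not be fitted, and no p-value is given. The calculation was tested on simulated data. Where no minimum or pseudocount is named, these settings hold. Direct RNA reads were not divided by length.

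The members and lists were chosen with earlier results of these data known. All 10 members are named, with tested genes of 5 related lists, the highest of the tricarboxylic acid cycle list (its lowest is not reported here) and the 6 genes of nearest pattern. Positions and coding lengths came from GENCODE release 29, start sites from RefSeq, both on the hg38 (GRCh38) assembly. Alternatives were other minimum counts, a pseudocount of 1, scaling by library totals, TMM (edgeR 4.0.16) or size factors (DESeq2 1.42.0), totals without ribosomal protein genes, thinning to the shallowest library and summed counts. Setting genes without a count to 3, and adding PGAM4 to PGAM1, were chosen after seeing the data. Python 3.11.15, numpy 2.4.6, pandas 2.3.3, scipy 1.17.1, matplotlib 3.10.9 and R 4.3.3 were used.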

Additional observations from a re-analysis of the deposited data

How the results depend on the processing

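No paired analysis was possible because each pool has 1 library and the result comes from no test. Of 352 values of single mRNAs under an alternative, 300 kept their direction and call, 13 gained and 17 lost a call, 17 without a call either way changed direction, and 5 changed direction with a call. Of the 22 changes of direction, 9 came on library totals alone and 6 without ribosomal protein genes in the totals. The 5 were LDHA in monosome against free, at 0.16 on library totals alone, and in heavy polysome against free GAPDH at 1.37 and GPI at 2.54 on library totals alone, and 0.20 and 1.38 without ribosomal protein genes in the totals. The heavy to light polysome median of 2.33 lay between 1.73 and 2.92 under the alternatives, and its 7 calls became 6 after thinning, where GPI lost its call at 0.63.

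The heavy polysome against free median of 1.28 became 4.32 on library totals alone and -0.34 when the counts of the 10 genes were summed, which GAPDH dominates. The 1 mRNA called lower there became 0 on library totals alone, without ribosomal protein genes in the totals, with no minimum count and with genes without a count set to 3. In monosome against free the median of -0.90 became 0.37 on library totals alone. The 2 mRNAs called lower there became 3 with a minimum of 100 and after thinning, where ENO1 gained a call, and 1 with a pseudocount of 1, a minimum of 10 or none, library totals alone, TMM, totals without ribosomal protein genes, and genes without a count set to 3. The 0 called higher became 1 with no minimum, library totals alone, totals without ribosomal protein genes and genes without a count set to 3. In light polysome against monosome the median of 0.08 became -0.071 after thinning, 1.07 on library totals alone and 0.51 without ribosomal protein genes in the totals. The 1 called higher there became 2 with no minimum, with thinning and without ribosomal protein genes in the totals, and 5 on library totals alone. The 2 called lower became 1 with a minimum of 10, with none and with thinning, and 0 on library totals alone and without ribosomal protein genes in the totals. A scaling moves all genes of a comparison alike, and a minimum moves the median gene. Without ribosomal protein genes in the totals, the 10 genes took 0.774%, 0.343%, 0.529% and 2.26% from free to heavy polysome. The mean gradient position, 2.65 as a median, moved by less than the spread between mRNAs with other weights. Depth limits the free library most: 2348 tested genes had no count there, and 3 of the 8 measured mRNAs had under 10.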
